A study of Caenorhabditis elegans with 15 samples.

Results

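This section compares rapamycin-treated N2 worms with eat-2 control worms, that is, a wild type given a TOR inhibitor with a mutant that is restricted in its feeding. The arrays were chosen by their titles, 3 of the wild type with rapamycin in 2% DMSO and 3 of the eat-2 mutant with 2% DMSO alone, which makes 6 of the 15 arrays of the series. The series holds 5 groups of 3 arrays, the others being N2 controls on 2% DMSO, N2 worms on allantoin and eat-2 worms on rapamycin. N2 is the standard wild isolate of C. elegans, and the eat-2 worms were of the DA465 strain. All worms were grown at 20 °C to the L4 moult, then moved to plates with the drug, the vehicle or both, and collected 72 h later. The drug plates of the study held rapamycin at 10 µM. RNA was extracted from whole worms and read on C. elegans Genome Arrays of Affymetrix. The 2 groups differed in strain and in drug together, so those effects cannot be told apart within this comparison, and the N2 controls and the rapamycin-treated eat-2 worms are given beside it where a gene turns on them. The sources used here do not say whether the 3 arrays of a group came from separate cultures, so p-values measure the spread between these samples, which may be technical. The lifespan plates of the study held FUDR, an inhibitor of DNA synthesis that prevents progeny, and whether the array plates did is not given in the sources used here.

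Target of rapamycin (TOR, encoded by let-363) is a kinase that promotes translation, growth and fat storage when amino acids are plentiful and holds back autophagy. Rapamycin bound to an FKBP protein inhibits TOR complex 1, whose partner Raptor is encoded by daf-15 and whose best known substrate is the S6 kinase RSKS-1. The eat-2 gene encodes a nicotinic acetylcholine receptor subunit of pharyngeal muscle, and its loss slows pumping and feeding and extends lifespan in worms. The question the comparison answers is how far the expression pattern of the treated wild type lies from that of this genetic model of diet restriction.

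The probe set of eat-2 itself gave log2 signals of 5.19, 5.47 and 5.34 in N2 on rapamycin and 5.47, 5.22 and 5.37 in eat-2 controls. These overlapped, at a difference of -0.01 (adjusted p = 0.922, limma), and lay close to 5.17, the signal below which the dimmest 25% of probe sets fell, so the gene's signal does not check the mutant label. Arrays within a group were alike, with r from 0.994 to 0.996 over all probe sets among the rapamycin arrays and from 0.991 to 0.998 among the eat-2 controls, against 0.931 to 0.957 between the groups. Each array was also placed on the line between the group means, where the mean of the eat-2 controls is 0 and that of N2 on rapamycin is 1. An array of either group was left out of its own group's mean. The eat-2 controls then lay at -0.10, 0.21 and -0.06, so that replicate 2 stood toward the rapamycin arrays. The N2 controls were spread along the line at 0.05, 0.63 and 0.29. They had the widest median SD of the 3 groups, 0.210 log2 against 0.121 for N2 on rapamycin and 0.111 for eat-2 controls. Array medians were 7.03 to 7.05 on rapamycin and 6.88 to 6.90 in eat-2 controls.

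**Figure D1:**
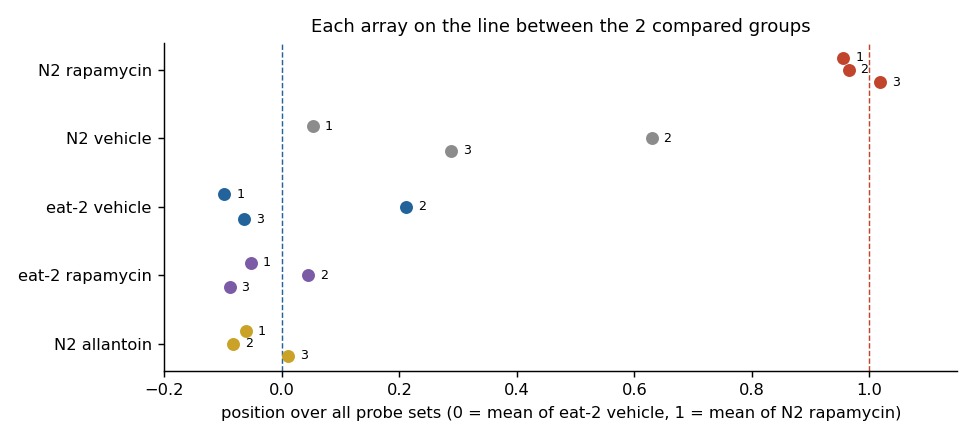
Position of each of the 15 arrays (points, numbered by replicate) on the line that joins the mean of the eat-2 controls (0) to the mean of N2 on rapamycin (1), over all 22548 probe sets. For arrays of these 2 groups, the array itself was left out of its group's mean. The N2 controls lie at 0.05, 0.63 and 0.29 between the groups, and eat-2 control 2 lies at 0.21.

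Rapamycin-treated N2 worms differed from eat-2 controls in a large part of the transcriptome. At an unadjusted p below 0.05 and a fold change above 2, the threshold of the study, limma called 3593 of 22548 probe sets (15.9%), of which 2150 (9.54%) were higher on rapamycin and 1443 (6.4%) were lower. Of the calls, 59.8% were thus higher, and 47.5% when each array was centred on its median, a scaling that moved the median difference over all probe sets from -0.06 to -0.21. At a Benjamini-Hochberg adjusted p below 0.05 there were 11644 probe sets (51.6%), 5334 higher (23.7%) and 6310 lower (28%), and 3591 of the called probe sets were among them. The 3 arrays of one group did not overlap the 3 of the other for 13779 probe sets (61.1%) and for 3581 of those called. Changes were also large, with 630 probe sets above 4-fold in the higher direction and 296 in the lower, and 130 and 59 above 8-fold. Read by gene, with the probe set of highest mean for each of 17118 genes, 1788 (10.4%) were called higher and 1119 (6.54%) lower, at a median difference of -0.05, and these are the values beside which the gene lists stand.

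**Figure D2:**
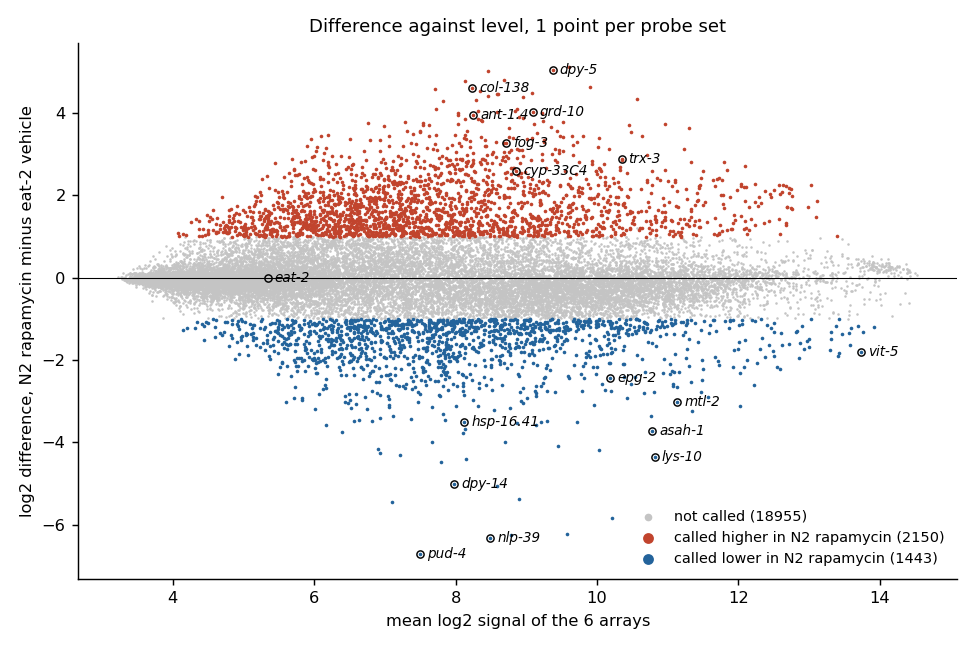
Log2 difference, N2 on rapamycin minus eat-2 controls, against the mean log2 signal of the 6 arrays, 1 point per probe set, with 2150 called higher in red, 1443 called lower in blue and named genes circled. Called probe sets spread over nearly the whole range of signal, and the largest differences were negative, led by pud-4 at -6.72.

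Genes of the cuticle, the collagen coat that the epidermis renews at each moult, formed the list with the most genes called higher on rapamycin. Of 146 cuticle collagens measured, 64 were called higher and 4 lower, with a median difference of 0.77 log2. The collagen dpy-5, in which mutants are short and fat, gave 11.81, 11.81 and 12.07 on rapamycin and 5.81, 8.41 and 6.35 in eat-2 controls. Every rapamycin array was above every eat-2 control, although eat-2 control 2 stood more than 2 log2 above the other controls (5.04 ± 0.58 (SE), 32.9-fold, adjusted p = 0.000236, limma). Without that array the difference was 5.82. Throughout, differences are log2 signals of N2 on rapamycin minus eat-2 controls, 3 arrays each, signals are listed by replicate, folds give the size in the direction of that sign, and adjusted p-values are those of limma. Lack of overlap is given as description only. It was a condition for choosing the genes of largest difference, and it held for 3581 of the 3593 called probe sets and 61.1% of all. The collagen col-38 had signals of 10.998, 10.90 and 11.33 against 5.69, 7.09 and 6.07, again with no overlap and the same control highest (4.79 ± 0.32 (SE), 27.7-fold, adjusted p = 1.91e-05). For col-138 the values were 10.49, 10.08 and 11.05 against 5.82, 6.31 and 5.64, so here the controls lay within 1 log2 of each other (4.62 ± 0.26 (SE), 24.5-fold, adjusted p = 9.04e-06). The related col-49 was at 9.89, 9.73 and 10.40 and 5.27, 5.77 and 5.25 (4.58 ± 0.20 (SE), 23.9-fold, adjusted p = 4.59e-06). The mean of the N2 controls lay between the group means for each of these collagens, with signals of 8.08, 10.35 and 9.35 for dpy-5 and 6.49, 7.89 and 7.09 for col-138. Such a place is favoured where genes are picked for a large difference between the 2 groups. Of the 8 epidermis markers, 4 were called higher and 0 lower, among them the collagens rol-6 at 3.27, dpy-7 at 2.77 and bli-1 at 1.70 log2, and the lowest of the 8 was at -0.11. The exception among the largest changes was the collagen dpy-14, at 5.63, 5.42 and 5.41 on rapamycin and 10.99, 10.21 and 10.24 in eat-2 controls. It was near the lower end of the signal range in all rapamycin arrays and high in all eat-2 controls (-4.997 ± 0.20 (SE), 31.9-fold, adjusted p = 3.84e-06). Of the 146 collagens, 60 were read by probe sets that may bind relatives, and without such probe sets 24 were called higher and 2 lower, at a median of 0.24.

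Secreted relatives of hedgehog, which in worms are expressed largely in the epidermis and act on moulting and the cuticle, were called in the higher direction alone. Of 82 hedgehog-related and patched-related genes, 31 were called higher and 0 lower (median 0.33). The groundhog gene grd-10 was at 11.32, 11.103 and 10.88 on rapamycin and 6.52, 7.66 and 7.08 in eat-2 controls (4.02 ± 0.27 (SE), 16.2-fold, adjusted p = 1.74e-05). Its relative grd-3 gave 11.31, 11.66 and 11.25 and 7.33, 7.94 and 7.61 (3.78 ± 0.17 (SE), 13.7-fold, adjusted p = 4.81e-06). The groundhog-like genes grl-21 and grl-15 were higher by 3.91 and 3.87 log2. For all 4 the rapamycin and control arrays did not overlap. The N2 controls of grl-21 were 8.75, 11.49 and 9.67, so that the second exceeded every rapamycin array.

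Among 70 genes of moulting and the apical matrix, 19 were called higher and 2 lower (median 0.28). The cuticlin cut-2 was at 11.17, 11.22 and 11.71 against 7.88, 8.37 and 7.94 (3.30 ± 0.18 (SE), 9.88-fold, adjusted p = 8.53e-06). The protease inhibitor mlt-11, needed to complete the moult, was at 10.61, 11.33 and 11.01 against 8.30, 7.84 and 7.69 (3.04 ± 0.21 (SE), 8.21-fold, adjusted p = 2.3e-05). The 4 probe sets of mlt-11 did not agree, with differences from 0.03 to 3.04. The hedgehog-related moulting gene qua-1 rose by 2.85 log2. The cuticlin-like cutl-25 went the other way, at 5.63, 5.14 and 5.55 against 8.21, 8.24 and 8.10 (-2.74 ± 0.13 (SE), 6.69-fold, adjusted p = 5.98e-06). A pharyngeal list made mostly of the abu and pqn families, many of which form the lining of the pharynx, had 14 of 66 called higher and 1 lower (median 0.24). Grouped by symbol prefix, 7 of 11 abu genes were called higher and 0 lower (median 2.37). Of 47 pqn genes 4 were called higher (8.51%, against 10.4% over all genes) and 1 lower (median 0.01). Among abu genes, abu-15 was higher by 3.46 and abu-14 by 2.85 log2, while abu-10 gave 3.24 with 1 probe set and -0.30 with another.

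**Figure D3:**
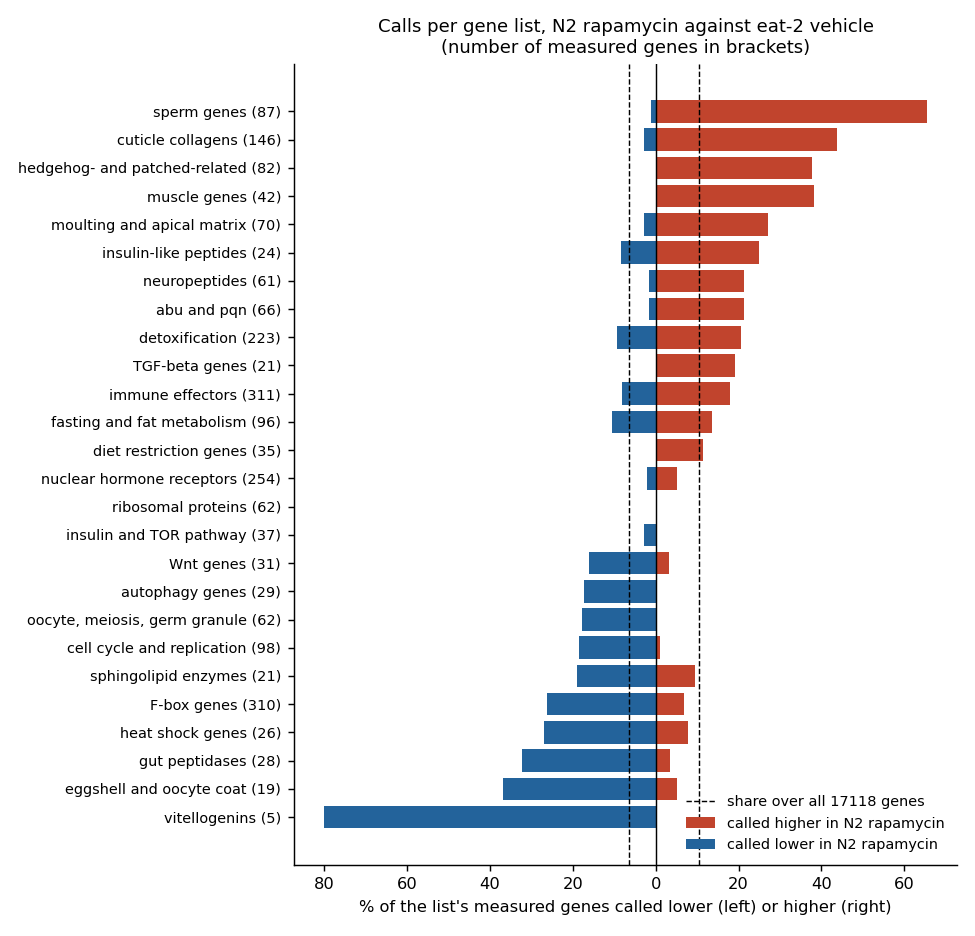
Percentage of the measured genes called higher (red, right) or lower (blue, left) on rapamycin in 26 of the gene lists, not among them the cell type markers and the pud list, with the shares over all 17118 genes as dashed lines at 10.4% and 6.54%. Of the lists plotted, sperm genes and collagens reach furthest to the right at 65.5% and 43.8%, and vitellogenins furthest to the left at 80% of 5 genes.

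Sperm genes had the highest share of calls in the higher direction of any list other than the short marker lists of cell types. In a hermaphrodite, sperm are made before the adult stage and the germline then switches to oocytes. Of 87 sperm genes, 57 were called higher and 1 lower (median 1.67). The gene fog-3, which commits germ cells to the sperm fate, was at 10.30, 10.41 and 10.35 on rapamycin and 6.70, 7.62 and 6.92 in eat-2 controls. The rapamycin arrays lay within 0.2 log2 of each other and above every control (3.27 ± 0.21 (SE), 9.66-fold, adjusted p = 1.61e-05). The sperm-specific ssp-16 was at 11.33, 10.85 and 11.39 against 7.14, 9.07 and 7.06, where control 2 stood apart from the others (3.44 ± 0.49 (SE), 10.8-fold, adjusted p = 0.000734). The same control was high for the major sperm protein msp-142, with 11.36, 10.998 and 11.43 on rapamycin against 8.16, 9.83 and 8.24 (2.52 ± 0.41 (SE), 5.72-fold, adjusted p = 0.00138). It was high again for the sperm phosphatase gsp-3, at 10.46, 10.24 and 10.78 against 6.98, 8.88 and 7.04 (2.86 ± 0.47 (SE), 7.27-fold, adjusted p = 0.0014). Leaving this control out raised the list to 61 called higher with a median of 2.06. Probe sets of the msp and gsp genes may bind relatives, and without such probe sets 19 sperm genes were called higher at a median of 0.90.

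Marker lists of cell types moved in the same comparison. An array of whole worms cannot tell fewer cells of a type from less RNA per cell, and this holds for every value here. Of 11 sperm markers 9 were called higher, and their summed linear signal, in units of 1000, was 45.2, 35.3 and 47.2 on rapamycin and 5.83, 21 and 5.92 in eat-2 controls. Of 10 oocyte markers 7 were called lower, with sums of 19.5, 16 and 16.9 on rapamycin and 41.4, 32.4 and 38.9 in eat-2 controls. Sums of the 7 embryo markers were 0.33 to 0.351 on rapamycin and 0.686 to 0.808 in eat-2 controls, and 1 was called lower, sdz-38 at -2.21. These sums also follow the brightest markers. The median log2 signal of the embryo markers was 5.23 to 5.34 on rapamycin against 5.68 to 5.80. Those values are near 5.17, the bound of the dimmest 25%, and the median of the differences was -0.46. The 10 gut markers split, with 3 higher and 3 lower. Their sum was 42.2 to 44.9 on rapamycin against 63.1 to 75.8, but a sum weighs the brightest markers most, and the list holds the yolk gene vit-2. The median log2 signal of the gut markers went the other way, at 11.57 to 11.69 against 10.80 to 11.13. The median of their differences was -0.42, so the gut markers gave no single direction. Body wall muscle, epidermis, neuron and pharynx markers had 5 of 8, 4 of 8, 3 of 10 and 2 of 9 called higher and none lower. Their sums on rapamycin lay above those of the eat-2 controls in every array. In the N2 controls the sperm sums were 7.03, 31.7 and 23.1, which span most of the distance between the groups. The part of these cell types in the other gene lists was not tested.

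**Figure D4:**
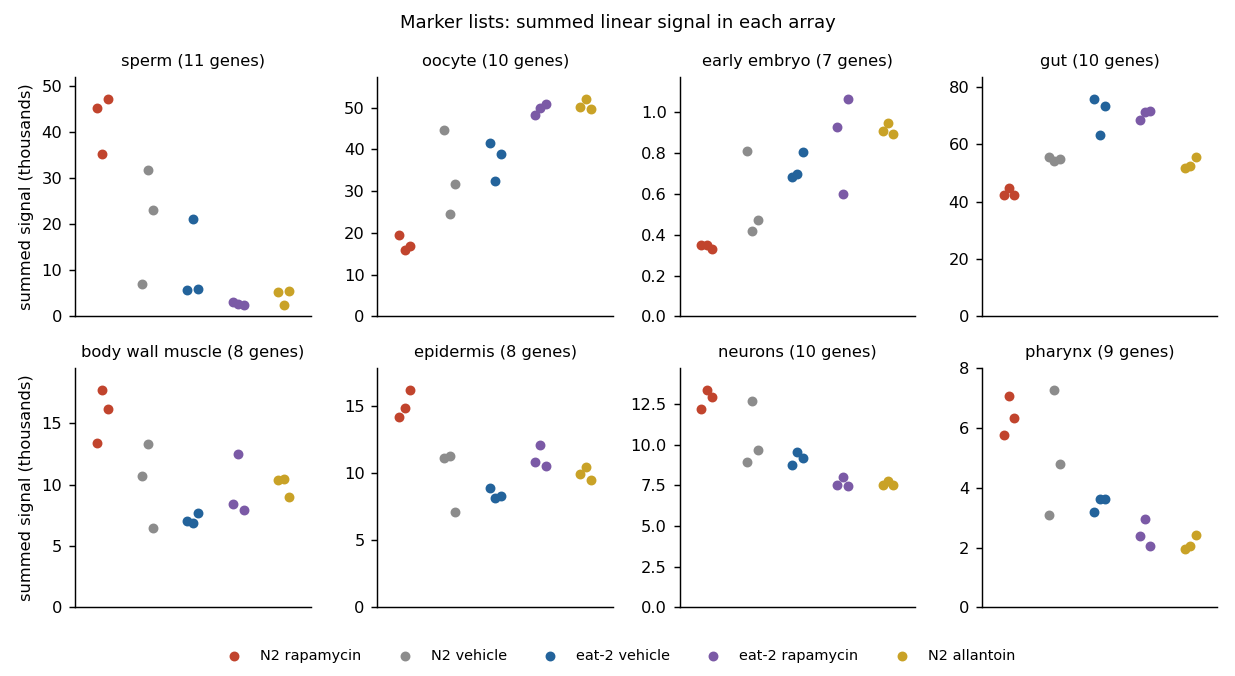
Summed linear signal (units of 1000) of each cell type's markers in each of the 15 arrays, coloured by group, with the number of measured markers in brackets. Sperm markers sum to 35.3 to 47.2 in N2 on rapamycin and to 5.83, 21 and 5.92 in eat-2 controls, and oocyte markers to 16 to 19.5 against 32.4 to 41.4.

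Calls among genes of oocytes, eggs and yolk were nearly all in the lower direction. Of 62 oocyte, meiosis and germ granule genes 0 were called higher and 11 lower (median -0.36). The germ granule gene meg-2 was at 6.11, 5.68 and 5.89 against 7.93, 7.63 and 7.85 (-1.91 ± 0.13 (SE), 3.77-fold, adjusted p = 2.11e-05), and the oocyte maturation gene oma-2 at 11.18, 10.75 and 10.80 against 12.40, 12.03 and 12.36 (-1.35 ± 0.15 (SE), 2.55-fold, adjusted p = 0.000193). Neither gene's arrays overlapped. Of 19 eggshell and oocyte coat genes 7 were called lower and 1 higher (median -0.87). The eggshell gene perm-2 had 12.55, 12.64 and 12.53 on rapamycin and 14.03, 14.04 and 14.10 in eat-2 controls, with less than 0.2 log2 between arrays of a group (-1.48 ± 0.08 (SE), 2.79-fold, adjusted p = 7.63e-06). The fertilisation receptor gene egg-1 differed by -1.36. The member called higher was clik-1, which encodes a calponin-like protein, at 1.45 log2. Of 5 vitellogenins, the yolk proteins that the gut makes and oocytes take up, 4 were called lower. Probe sets that may bind relatives read 3 of the 5, so these calls may not be separate. Signals of vit-5 were 12.68, 12.88 and 12.94 on rapamycin and 14.75, 14.40 and 14.74 in eat-2 controls (-1.80 ± 0.12 (SE), 3.48-fold, adjusted p = 2.13e-05), and those of vit-2 were 11.53, 11.64 and 11.68 and 13.14, 12.98 and 13.08 (-1.45 ± 0.09 (SE), 2.74-fold, adjusted p = 1.14e-05). N2 controls were close to the eat-2 controls for vit-5, at 14.55, 14.05 and 14.28.

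Cell cycle and early embryo genes moved in the same direction. Of 98 cell cycle and DNA replication genes 18 were called lower and 1 higher, and 82 were lower at an adjusted p below 0.05, with a median of -0.74. The replication licensing gene cdt-1 was at 6.37, 6.46 and 6.46 against 8.75, 8.33 and 9.02 (-2.27 ± 0.16 (SE), 4.83-fold, adjusted p = 2.52e-05). The kinase gene cdk-4, which drives entry into S phase, was at 6.66, 6.36 and 6.58 against 8.40, 8.40 and 8.48 (-1.90 ± 0.10 (SE), 3.72-fold, adjusted p = 7.42e-06). The gene called higher was the phosphatase cdc-25.4, at 8.30, 7.70 and 8.23 against 6.001, 6.72 and 5.99 (1.84 ± 0.23 (SE), 3.58-fold, adjusted p = 0.000396). The count of lower calls was 29 without eat-2 control 2 and 9 after cyclic loess. Of 27 embryonic fate genes 4 were called lower and 0 higher (median -0.38). Signals of sdz-38, a zygotic gene that depends on SKN-1, were 6.35, 6.07 and 5.96 and 8.17, 8.29 and 8.56 (-2.21 ± 0.14 (SE), 4.63-fold, adjusted p = 1.31e-05). The hatching protease gene hch-1, which digests the eggshell from within, was at 6.24, 5.77 and 5.79 against 10.98, 10.04 and 10.02. It was low in all rapamycin arrays and high in each eat-2 control (-4.41 ± 0.26 (SE), 21.3-fold, adjusted p = 1.12e-05).

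Calls among muscle and nerve genes were nearly all in the higher direction. Of 42 genes of body wall and pharyngeal muscle 16 were called higher and 0 lower (median 0.73). The troponin I gene tni-1 was at 10.37, 10.82 and 10.51 against 8.76, 8.69 and 8.80 (1.82 ± 0.12 (SE), 3.52-fold, adjusted p = 2e-05). The basement membrane perlecan gene unc-52 rose by 1.96 log2 with its brightest probe set, and its 3 probe sets ran from 0.77 to 1.96. Among the markers, the troponin I gene unc-27 rose by 1.41 and the paramyosin gene unc-15 by 1.16 log2. Of 61 listed genes of neuropeptides and their processing, 13 were called higher and 1 lower (median 0.59). At an adjusted p below 0.05, 46 were higher. The list does not hold every nlp gene, and grouped by symbol prefix 16 of 58 nlp genes were called higher and 2 lower. The RFamide peptide gene flp-13 was at 9.63, 9.89 and 9.64 against 8.22, 8.63 and 8.61 (1.23 ± 0.14 (SE), 2.35-fold, adjusted p = 0.000186). Its lowest rapamycin array was 1 log2 above its highest control. The neuropeptide-like gene nlp-8 rose by 1.54 and the synaptic vesicle gene rab-3 by 1.46 log2. The count of neuropeptide genes called higher was 5 without eat-2 control 1, 5 under median centring and 21 after cyclic loess.

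The single gene of the neuropeptide list called lower, nlp-39, had one of the largest changes of any gene. It was at 5.50, 4.91 and 5.57 on rapamycin and 11.70, 11.59 and 11.68 in eat-2 controls (-6.33 ± 0.17 (SE), 80.5-fold, adjusted p = 1.76e-06). The eat-2 controls lay within 0.2 log2 of each other, far above the rapamycin arrays, and the N2 controls lay between at 9.39, 8.46 and 10.41. The rapamycin arrays of nlp-39 were near 5.17, the bound of the dimmest 25%, with the second below it, so the fold is of uncertain size. Among the named genes only pud-4 fell further. This gene, named for a protein upregulated in daf-2 mutants, was at 4.24, 3.77 and 4.42 against 11.35, 10.42 and 10.81. Its relative pud-3 was at 5.22, 4.91 and 5.04 against 10.57, 8.36 and 9.18. The rapamycin arrays of both pud genes were close to or below 5.17, among the dimmest probe sets, so their differences of -6.72 (adjusted p = 3.23e-06) and -4.31 (adjusted p = 0.000192) are of uncertain size. Large decreases without a role that is given here were those of C54C8.12 at -6.25 and Y65B4BR.1 at -5.06 log2.

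**Figure D5:**
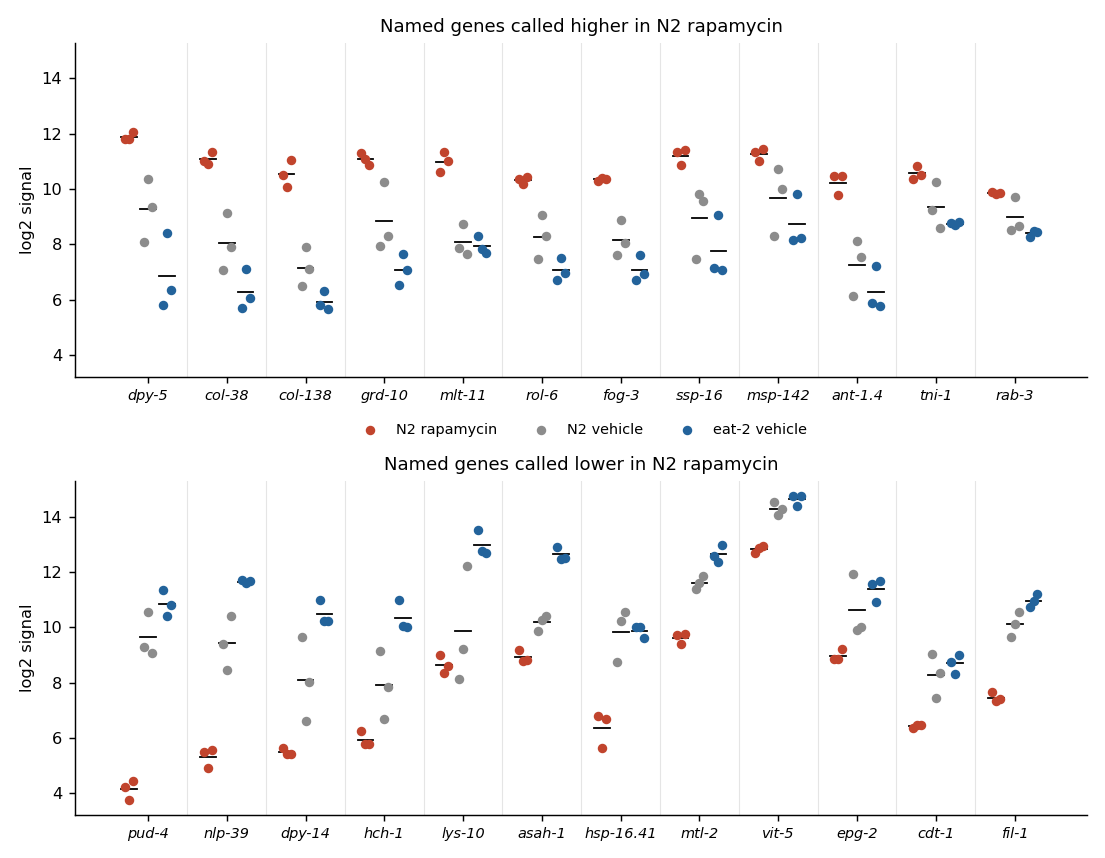
Log2 signal of 24 named genes in each array of N2 on rapamycin (red), N2 controls (grey) and eat-2 controls (blue), with black bars for group means. The 24 genes were picked from those called, so that their rapamycin and eat-2 control arrays do not overlap follows from the choice. This held for 3581 of the 3593 called probe sets and for 61.1% of all probe sets. The N2 controls mostly lie between the 2 groups, as for nlp-39 at 9.39, 8.46 and 10.41. Picking genes by a large difference between these 2 groups favours this as well, and its share over all probe sets was not counted.

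Sphingolipid enzymes as a list did not move 1 way. Acid ceramidases and acid sphingomyelinases break down membrane sphingolipids, and the 4 largest changes in a list of 21 sphingolipid enzymes were all of these kinds, as was seen from their values. Of the list 4 were called lower and 2 higher, 7 were lower and 7 higher at an adjusted p below 0.05, and the median was -0.03, or 0.23 without probe sets that may bind relatives. The ceramidase gene asah-1 was at 9.18, 8.78 and 8.82 against 12.92, 12.48 and 12.53 (-3.72 ± 0.15 (SE), 13.2-fold, adjusted p = 3.86e-06), with the N2 controls between at 9.87, 10.27 and 10.39. Its relative asah-2 was at 7.77, 7.66 and 7.70 against 10.24, 9.96 and 10.08 (-2.38 ± 0.10 (SE), 5.21-fold, adjusted p = 3.66e-06). The sphingomyelinase gene asm-3 was at 5.74, 5.47 and 5.72 against 9.93, 8.33 and 8.98, and eat-2 control 1 was the highest (-3.43 ± 0.35 (SE), 10.8-fold, adjusted p = 0.000123). A further sphingomyelinase gene, asm-2, differed by -2.33 log2. Among peptidases of the gut 9 of 28 were called lower and 1 higher (median -0.53). The cathepsin B-like gene cpr-1 was at 13.04, 13.05 and 13.20 against 14.57, 14.26 and 14.43 (-1.32 ± 0.11 (SE), 2.5-fold, adjusted p = 4.04e-05). The aspartic protease gene asp-17 was at 4.81, 4.97 and 4.98 against 7.78, 7.66 and 8.41, with the rapamycin arrays below 5.17.

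Genes of fat metabolism had calls in both directions, at shares not far above those over all genes. Of 96 genes of fasting and fat metabolism 13 were called higher (13.5%, against 10.4% over all genes). In the lower direction 10 were called (10.4%, against 6.54%). The median of 0.03 turned to -0.12 under median centring. The fasting-induced lipase gene fil-1 was at 7.64, 7.34 and 7.39 against 10.75, 10.94 and 11.19 (-3.50 ± 0.14 (SE), 11.3-fold, adjusted p = 3.33e-06). The lipase-like gene lipl-2 was at 6.22, 5.84 and 5.81 against 9.34, 8.40 and 9.19 (-3.02 ± 0.24 (SE), 8.13-fold, adjusted p = 4.2e-05). Both were low in every rapamycin array. In the other direction, cpt-4, a carnitine palmitoyltransferase gene of fatty acid import into mitochondria, was at 8.61, 9.05 and 8.82 against 6.83, 6.47 and 6.11 (2.36 ± 0.19 (SE), 5.12-fold, adjusted p = 4.31e-05). The fatty acid elongase gene elo-7 differed by 2.61, with eat-2 controls below 5.17.

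Genes of diet restriction itself are known to be needed for or to respond to reduced feeding in worms. Of 35 measured, 4 were called higher (11.4%, close to the 10.4% over all genes) and 0 lower (against 6.54%). At an adjusted p below 0.05, 12 were higher and 4 lower. The median was 0.00, and -0.15 under median centring. The largest difference among the called members was that of pept-1, the peptide transporter of the gut, at 9.47, 9.72 and 9.62 against 8.10, 7.81 and 7.74 (1.72 ± 0.12 (SE), 3.3-fold, adjusted p = 2.26e-05). The solute carrier gene slcf-1 was at 7.48, 7.25 and 7.25 against 5.61, 5.96 and 5.60 (1.60 ± 0.13 (SE), 3.04-fold, adjusted p = 3.72e-05). Neither gene's groups overlapped. The dafachronic acid synthesis gene daf-9 rose by 1.46 and the kinase gene jnk-1 by 1.35 log2. Without rapamycin array 1 the list had 7 called higher, and after cyclic loess 8. The FoxA gene pha-4, required for lifespan extension in eat-2 mutants, was at 8.29, 8.76 and 8.66 against 7.64, 7.56 and 7.68, a difference of 0.94 that missed the 2-fold bound (adjusted p = 0.000579).

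Few genes of the TOR and insulin pathway passed the 2-fold bound. Of 37 pathway genes 1 was called lower and 0 higher, 15 were lower and 4 higher at an adjusted p below 0.05, and the median was -0.24. The TOR kinase gene let-363 was at 10.01, 10.09 and 10.12 on rapamycin and 10.11, 10.03 and 9.92 in eat-2 controls. These values overlapped (0.05 ± 0.09 (SE), adjusted p = 0.642), the sign of this small difference turned under median centring, and after cyclic loess it was 0.24 (adjusted p = 0.0422). The other let-363 probe set differed by -0.28 with the groups apart (adjusted p = 0.0631). The Raptor gene daf-15 differed by -0.57 (adjusted p = 0.0264), which missed significance with the replicate block, after cyclic loess and without some single arrays, and the S6 kinase gene rsks-1 differed by 0.28 (adjusted p = 0.12). The called gene was pdk-1, a kinase downstream of the insulin receptor, at 8.47, 8.96 and 8.65 against 10.24, 9.95 and 10.37 (-1.49 ± 0.15 (SE), 2.82-fold, adjusted p = 0.000139), and its 5 probe sets ran from -1.96 to -0.17. The insulin receptor gene daf-2 was at 5.87, 5.92 and 5.84 against 6.01, 5.92 and 5.79, with overlap (adjusted p = 0.826). The FOXO factor gene daf-16, which acts downstream of it, was at 10.03, 10.14 and 10.31 against 9.39, 9.32 and 9.25 without overlap, a difference of 0.84 under the 2-fold bound (adjusted p = 0.000245). Its 4 probe sets ran from 0.18 to 0.84, and the arrays overlapped for the lowest (adjusted p = 0.309). The energy sensor aak-2 differed by -0.34 (adjusted p = 0.0651) with its brightest probe set and by -0.61 (0.000318) with the other, and the groups were apart for both. The stress factor skn-1 differed by -0.22 (0.392) with its brightest probe set, while its 3 probe sets ran from -0.33 to 0.34, the highest with the groups apart (adjusted p = 0.0423). The heat shock factor hsf-1 differed by -0.70 (0.00316) and the sirtuin sir-2.1 by -0.21 (0.201).

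Candidate ligands of the insulin receptor had calls in both directions. Of 24 insulin-like peptide genes 6 were called higher and 2 lower, at a median of 0.12 that turned to -0.04 under median centring. The largest change was that of ins-11, at 9.63, 9.26 and 9.31 against 6.52, 7.48 and 7.16 (2.35 ± 0.23 (SE), 5.09-fold, adjusted p = 0.00011). For ins-33 the signals were 8.32, 8.34 and 8.21 and 6.58, 6.47 and 6.01 (1.94 ± 0.15 (SE), 3.83-fold, adjusted p = 3.43e-05). Groups did not overlap for either peptide.

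Ribosomal protein and autophagy genes, which belong to processes that TOR acts on, had medians of opposite sign. None of 62 cytosolic ribosomal protein genes was called, but 35 were higher and 0 lower at an adjusted p below 0.05. Their median was 0.23 log2, and 0.08 under median centring. The ribosomal gene rps-6, whose protein is phosphorylated by S6 kinase, was at 14.07, 14.18 and 14.14 against 13.72, 13.83 and 13.79 (0.35, adjusted p = 0.00775), a difference that was not significant under median centring. Of 43 translation factors 2 were called lower and 0 higher (median -0.03, and 0.07 after cyclic loess). Of 29 autophagy genes 5 were called lower and 0 higher, and 20 were lower at an adjusted p below 0.05 (median -0.42). The largest changes were in epg-2 and sepa-1, which direct germ granule proteins to autophagy in embryos. Signals of epg-2 were 8.87, 8.84 and 9.20 and 11.58, 10.93 and 11.69 (-2.43 ± 0.20 (SE), 5.39-fold, adjusted p = 5.12e-05), and those of sepa-1 were 7.11, 6.94 and 7.04 and 8.77, 8.53 and 8.90 (-1.70 ± 0.11 (SE), 3.25-fold, adjusted p = 1.75e-05). The core machinery genes atg-16.1 and atg-10 differed by -1.39 and -1.08 log2. As given above, 7 of 10 oocyte markers and 1 of 7 embryo markers were called lower in the same arrays, and their part in these values was not tested. Of the predicted drug targets that the study named, 11 were measured, and pcn-1, the replication clamp gene, was called lower at -1.003, right at the bound.

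Heat shock genes were called lower more often than higher. Of 26 heat shock genes 7 were called lower and 2 higher (median -0.32). The small heat shock gene hsp-16.41 was at 6.79, 5.62 and 6.69 against 10.03, 10.01 and 9.60 (-3.51 ± 0.30 (SE), 11.4-fold, adjusted p = 5.37e-05). Its relative hsp-16.2 was at 7.30, 6.26 and 7.23 against 10.20, 10.27 and 9.96 (-3.21 ± 0.26 (SE), 9.29-fold, adjusted p = 4.61e-05). Rapamycin array 2 was the lowest for both, and all rapamycin arrays were below all controls. In the antioxidant and metal list of 32 genes, 1 was called higher and 3 lower, with a median of 0.04 that turned to -0.12 under median centring. The metallothionein gene mtl-2 was at 9.72, 9.40 and 9.76 against 12.56, 12.37 and 12.99 (-3.01 ± 0.17 (SE), 8.07-fold, adjusted p = 9.57e-06). The thioredoxin gene trx-3 went the other way, at 11.81, 11.79 and 11.75 against 8.45, 9.56 and 8.73 (2.87 ± 0.25 (SE), 7.33-fold, adjusted p = 6.21e-05). The mitochondrial carrier genes ant-1.4 and ant-1.3, ADP/ATP translocases, were the 2 called genes of 53 respiratory chain genes, higher by 3.95 and 3.72 log2.

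Immune effectors changed in both directions. Of 311 measured, 56 were called higher and 25 lower (median -0.03), and 99 were below 5.17 in both groups. The largest changes were negative. The lysozyme gene lys-10 was at 8.99, 8.33 and 8.59 against 13.54, 12.76 and 12.68 (-4.35 ± 0.25 (SE), 20.4-fold, adjusted p = 1.02e-05), and the invertebrate-type lysozyme gene ilys-2 at 8.25, 7.59 and 7.99 against 12.38, 12.22 and 11.75 (-4.17 ± 0.21 (SE), 18-fold, adjusted p = 6.18e-06). The N2 controls ran across the whole range for lys-10, at 8.13, 9.23 and 12.21. The C-type lectin gene clec-196 differed by -3.98 log2.

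Detoxification genes were called more often in the higher direction, 46 of 223 against 21 lower, with a median of 0.08 that turned to -0.07 under median centring. The cytochrome P450 gene cyp-33C4 was at 10.16, 10.15 and 10.16 on rapamycin and 7.51, 7.51 and 7.65 in eat-2 controls, with less than 0.2 log2 between arrays of a group (2.60 ± 0.08 (SE), 6.06-fold, adjusted p = 2.49e-06). Its probe set may bind related P450 genes. A second P450 gene, cyp-35A3, was at 9.35, 9.77 and 9.52 against 6.93, 6.52 and 6.87 (2.78 ± 0.15 (SE), 6.85-fold, adjusted p = 7.37e-06), while cyp-37B1 was lower, at 7.77, 7.51 and 7.96 against 10.58, 10.40 and 10.54 (-2.76 ± 0.12 (SE), 6.78-fold, adjusted p = 4.77e-06). The glucuronosyltransferase gene ugt-66 rose by 2.69 log2.

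F-box genes, which encode adaptors that bring proteins to ubiquitin ligases, formed the list with the most genes called lower. Of 310 measured, 81 were called lower and 21 higher (median -0.24). The gene fbxb-17 was at 6.23, 5.91 and 6.13 against 9.23, 9.20 and 9.28 (-3.15 ± 0.10 (SE), 8.87-fold, adjusted p = 2.49e-06), and fbxa-83 at 7.63, 7.01 and 7.63 against 10.48, 10.39 and 10.38 (-2.99 ± 0.17 (SE), 7.96-fold, adjusted p = 9e-06). The largest difference with the brightest probe set of each gene was an increase, that of fbxa-75 at 10.48, 10.23 and 10.02 against 6.41, 6.90 and 5.84 (3.86 ± 0.25 (SE), 14.6-fold, adjusted p = 1.61e-05). The arrays of all 3 genes were apart. The gene fbxc-51 gave -4.26 with 1 probe set, near the dim end on rapamycin, and -1.29 with the other.

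Signalling lists were small. Of 21 listed genes of TGF-beta signalling and body size 4 were called higher and 0 lower (median 0.46). The Smad genes sma-4, sma-3 and daf-14 rose by 1.19, 1.01 and 1.003 log2, the last 2 right at the bound. The fourth, at 1.25, was the body size kinase gene sma-5, which is not counted as a TGF-beta component. The count for the list was 2 without rapamycin array 2. Of 31 Wnt genes 5 were called lower and 1 higher (median -0.28). The dishevelled gene dsh-2 was at 8.13, 8.05 and 8.15 against 10.09, 9.46 and 9.85 (-1.69 ± 0.15 (SE), 3.22-fold, adjusted p = 7.37e-05). The ligand gene lin-44 was the Wnt gene called higher, at 7.54, 7.28 and 7.42 against 6.13, 6.15 and 6.18 (1.26 ± 0.09 (SE), 2.4-fold, adjusted p = 2.59e-05). Of 254 nuclear hormone receptors 13 were called higher and 5 lower, below the background share in both directions, with a median of 0.05 that turned to -0.10 under median centring. The largest change was in nhr-2, at -2.49 with its brightest probe set and from -2.50 to -0.03 over 4. Of 1248 chemoreceptor genes 1004 were below 5.17 in both groups, and 4 were called higher and 17 lower.

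The other groups of the series place these differences. The comparisons that follow were each fitted with limma on their own 6 arrays and share arrays with the main comparison, so they are given side by side and not as independent evidence. For the P450 gene cyp-33C4, the N2 controls were 6.38, 7.26 and 7.58 and eat-2 worms on rapamycin 11.12, 10.46 and 11.22. It was higher on rapamycin within N2 by 3.09 (adjusted p = 0.00963) and within eat-2 by 3.38 (0.0019), while the controls of both strains differed by 0.49 (0.706). For the collagen col-138 the drug difference was 3.39 within N2 (adjusted p = 0.0165) and 0.23 within eat-2 (0.414), where the rapamycin arrays were 6.05, 6.22 and 6.20. The strains differed by -1.23 (0.567, eat-2 minus N2 controls). The small heat shock gene hsp-16.41 fell by 3.47 within N2 (adjusted p = 0.0269) and by 1.77 within eat-2 (0.0023), and its strain difference was 0.04 (0.984).

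For asp-17, asah-1 and asm-3 the strain difference was the larger value. The N2 controls of the protease gene asp-17 were 5.39, 5.06 and 5.24, next to the rapamycin arrays, and its strain difference was 2.72 (eat-2 minus N2 controls, adjusted p = 0.0442), against -0.31 for the drug within N2 (0.136). The ceramidase gene asah-1 had a part of each, with -1.25 for the drug within N2 (adjusted p = 0.023) and 2.47 for the strain (0.0442), and eat-2 worms on rapamycin at 12.71, 11.89 and 12.82 overlapped their controls. The sphingomyelinase gene asm-3 had -1.08 (0.0113) and 2.35 (0.223) in the same order. The order was the other for vit-5, whose drug difference within N2 was -1.47 (adjusted p = 0.0129) and the strain difference 0.33 (0.682), and within eat-2 the drug difference was 0.01 (0.966). For pud-4 the drug difference was -5.49 in N2 (adjusted p = 0.00676) and 1.14 in eat-2 (0.0321), opposite in sign. Whether the drug acted differently in the strains was not tested here, and a p that missed the threshold in one strain does not show a difference from the other.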

How the data were processed

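RNA of whole worms was hybridised to single-colour Affymetrix arrays. The deposited values are log2 signals per probe set, which the authors made from the scans with RMA in Affymetrix Expression Console. Versions and the genome build are not given in the sources used here. RMA sets the arrays to a shared distribution of probe signals, so differences are relative to it.

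The table holds 22625 probe sets by 15 arrays. The 77 control probe sets were left out, and of the 22548 tested 20766 carry 1 gene symbol, 887 several and 895 none. The deposited platform annotation gave the symbols, and of 20701 matched Entrez identifiers 0 had a changed symbol. Signals ran from 3.14 to 14.86. The number of arrays limits the precision.

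N2 on rapamycin and eat-2 on vehicle, 3 arrays each, were compared with limma 3.58.1 in R 4.3.3 (lmFit and eBayes, two-sided), on these 6 arrays alone, after the pairwise analysis that the study describes. A probe set was called at an unadjusted p below 0.05 and a fold above 2, and Benjamini-Hochberg adjusted p-values over all 22548 were given beside it. Genes in lists were read by their probe set of highest mean, and lists were described by counts and medians with no set test. Probe sets ending in _x_at or _s_at may bind related genes. Just outside the fold bound were T19C4.1 at 1.00 and C50B6.3 at -1.00, and just inside T27E4.7 and dhhc-13, both at 1.00.

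Named genes were eat-2, then the 12 higher and 12 lower genes with the largest differences among non-overlapping calls at an adjusted p below 0.05 with a single symbol and a higher group above the dimmest 25%, then up to 4 called members of each of 41 lists, then fixed genes of the TOR, insulin and diet restriction pathways and the study's predicted drug targets. The comparison and the lists were chosen with earlier results of these data known. The labels do not say whether the replicate numbers pair the arrays, and the main fit did not pair them. Deviations of same-numbered arrays from their group means correlated at -0.19, -0.35 and -0.09, and those of other pairs at -0.25 to 0.33. With 3 arrays a group, whose deviations depend on each other, these values cannot decide the question. The code was tested on simulated data. Alternatives were other fits, scalings, filters and thresholds, and each array left out.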

Additional observations from a re-analysis of the deposited data

How the results depend on the processing

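The numbers of probe sets called, of each direction and at an adjusted p below 0.05 stayed within 1.5 times their values under every setting run, except that a fold above 1.5 called 7056, 3675 higher and 3381 lower. Median centring gave 47.5% of calls higher. Leaving out 1 array gave 3402 to 3927 called, 2055 to 2310 higher, 1347 to 1617 lower, 58.8 to 60.4% higher and 9612 to 11929 at an adjusted p below 0.05, and the highest count of calls came without eat-2 control 2. With the replicate number as a block, 3593 were called and 10168 passed the adjusted p, and the calls of age-1, daf-15 and fkb-6 at an adjusted p below 0.05 were lost.

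List medians that changed sign under median centring were those of insulin-like peptides (-0.0372), diet restriction genes (-0.15), fasting and fat metabolism (-0.12), antioxidant and metal genes (-0.12), nuclear hormone receptors (-0.10) and detoxification genes (-0.07). Without probe sets that may bind relatives the median of sphingolipid enzymes was 0.23. Of the named genes, let-363 was at -0.10 under median centring, daf-2 at 0.0168 with array weights, and with 1 array left out daf-2 ran from -0.0843 to 0.0239 and eat-2 from -0.0840 to 0.0584, none of them past the threshold in any of these. Over 170 named genes and 14 settings, 2333 of 2380 values kept their direction and their side of an adjusted p of 0.05, 31 no longer passed it and 11 newly passed it. The losses included ins-31 and msp-3 in the unmoderated test, sod-5 in a fit of all 15 arrays and rps-6 under median centring. The cause was not tested. Genes below 5.17 in a group have differences of uncertain size, and 3 arrays a group limit all values.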

Other observations

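Other gene families, grouped by the prefix of their symbols after their values were seen, also moved in the comparison of N2 on rapamycin with eat-2 controls. Of 13 dbd genes 10 were called higher, among them dbd-13 and dbd-20, which differed by 4.63 and 4.47 log2. Of 13 bus genes, which in worms act on the glycans of the surface coat, 8 were called higher and 0 lower. Of 23 pals genes, known for a response to intracellular pathogens, 11 were called higher and 0 lower, at a median of 0.72. The P-glycoprotein transporter family pgp had 6 of 13 called higher and 2 lower.

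Lower families included fbxb, with 56 of 95 called lower and 0 higher at a median of -1.23, and fbxc, with 17 of 44 lower and 2 higher. Of 171 fbxa genes 19 were called higher and 8 lower, at a median of 0.01. These shares were near the 10.4% higher and 6.54% lower over all genes. The ubiquitin ligase adaptor family skr had 9 of 19 lower and 3 higher. Of 32 sdz genes, defined by their dependence on SKN-1 in the embryo, 18 were called lower and 2 higher, at a median of -1.17. The lipase-like lipl family had 4 of 8 lower and 1 higher, and 4 of 15 taf genes, subunits of general transcription factor TFIID, were lower and 0 higher.

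The array numbered 2 had the highest position on the line toward N2 on rapamycin in the N2 controls (0.63), in the eat-2 controls (0.21) and in the eat-2 worms on rapamycin (0.04), but not in N2 on rapamycin or on allantoin. The allantoin arrays lay at -0.06, -0.08 and 0.01 on this line, and the eat-2 worms on rapamycin at -0.05, 0.04 and -0.09. A position near 0 does not measure likeness to the eat-2 controls off the line.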
